A study of Mus musculus with 2 samples.

Results

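The cells described here are the 20% of Matrigel-grown mouse intestinal organoid cells with the highest combined rank for 4 stem cell markers, Lgr5, Ascl2, Smoc2 and Gkn3. Every Matrigel cell with at most 30% mitochondrial counts was ranked by its level of each marker, and the 4 ranks were averaged. This gave 320 members among 1599 kept Matrigel cells, and the other 1279 served as the comparison. The deposited table holds 2090 cells in all, 1615 of them from Matrigel, 336 from type I collagen and 139 named as doublets, which were not used. Because the markers chose the members, their levels and those of every other gene in these cells are given as a description, without a test.

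The organoids, epithelial cultures with a lumen, came from proximal small intestine of C57BL/6 WT animals. Crypts embedded in Matrigel, which is made from basement membrane, grew with EGF (50 ng/mL), Noggin (100 ng/mL) and R-spondin1 (400 ng/mL), a condition named Matrigel-ENR. In collagen-ENRW, the condition of the type I collagen gels, Wnt3a (100 ng/mL), 10 mM nicotinamide and bovine serum albumin (1%) were added to these factors. Both were taken on day 4, Matrigel cultures with a non-enzymatic recovery solution and collagen cultures with collagenase, and both were then dissociated with TrypLE. Cells of each culture were tagged through an EpCAM antibody with a barcoded hashtag (A953 for Matrigel, A952 for collagen), pooled, captured on the BD Rhapsody system and amplified by TAS-Seq into 1 cDNA library and 1 hashtag library. Each culture was a single suspension with no named animals, so cells are not replicates and no p-value is given.

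Crypt base columnar stem cells sit at the bottom of intestinal crypts between Paneth cells and renew the epithelium through transit-amplifying daughters that differentiate as they move up. They depend on canonical Wnt signalling, which R-spondins strengthen by protecting Wnt receptors from removal, and in budding organoids the Paneth cells supply the Wnt ligand. Lgr5 encodes a receptor for R-spondins, Ascl2 a basic helix-loop-helix transcription factor under Wnt control, Smoc2 a secreted matricellular protein and Gkn3 a secreted protein of the gastrokine family.

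Members were close to the other Matrigel cells in depth and quality. Their median was 168888 counts per cell against 181220, with 9335.5 against 9479 detected genes and a mitochondrial share of 4.62% against 4.64%. The hashtag library, which the choice did not use, held all 1951 cells of both cultures by barcode. Members had a median of 3157.5 counts of the Matrigel hashtag against 3215 in the other Matrigel cells, and its median share among the hashtags of both cultures was 99.5% in each. Epcam, which encodes the epithelial adhesion protein that the tag binds, stood at 1104 CPM in members and 1069 CPM in the others. CPM are the summed counts of a group, or the counts of a cell, scaled to a total of 1000000.

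The average rank ran from 1097 to 1536 in members (median 1214) and from 155 to 1096 in the others (median 731), with no gap at the limit. The last member inside the limit had 240 CPM of Lgr5, 0 CPM of Ascl2, 375 CPM of Smoc2 and 148 CPM of Gkn3. The first cell outside had 399, 0, 312 and 117 CPM of the same genes. The group is a range of a score, and whether it is a separate cell type was not tested.

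Most members were high in several of the 4 markers at once, but few in all of them. Taking each marker alone and its highest 20% of Matrigel cells, 14 members were in that range for all 4 markers, 95 for 3, 142 for 2, 63 for 1 and 6 for 0. Among the other Matrigel cells 0 were in it for all 4, 4 for 3, 93 for 2, 394 for 1 and 788 for 0. A count of every marker was present in 290 members (90.6%) and in 512 of the other cells (40.0%), and the remaining 30 members had a count of 3 markers.

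Lgr5 had a count in all 320 members, at 50.5 CPM in the lowest cell, 234 CPM in the median cell and 1385 CPM in the highest, while the other Matrigel cells ran from 0 through a median of 92.4 to 2367 CPM. Smoc2 too was present in every member, from 92.7 through 330 to 959 CPM, against 0, 149 and 609 CPM. The ranges of both genes overlapped widely, and the single cell richest in Lgr5 was not a member. Ascl2 ran from 0 through 66.9 to 367 CPM in members and from 0 through 15.1 to 302 CPM in the others, and 298 members had a count of it. Gkn3 ran from 0 through 127 to 1077 CPM against 0, 10.5 and 732 CPM, and 312 members had a count. Summed over cells, the members stood above the others by a log2 ratio of 1.16 for Lgr5, 1.16 for Ascl2, 1.07 for Smoc2 and 1.85 for Gkn3, which are the values the choice was made on. Ratios are of CPM with 1 CPM added, which understates those of low genes.

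**Figure D1:**
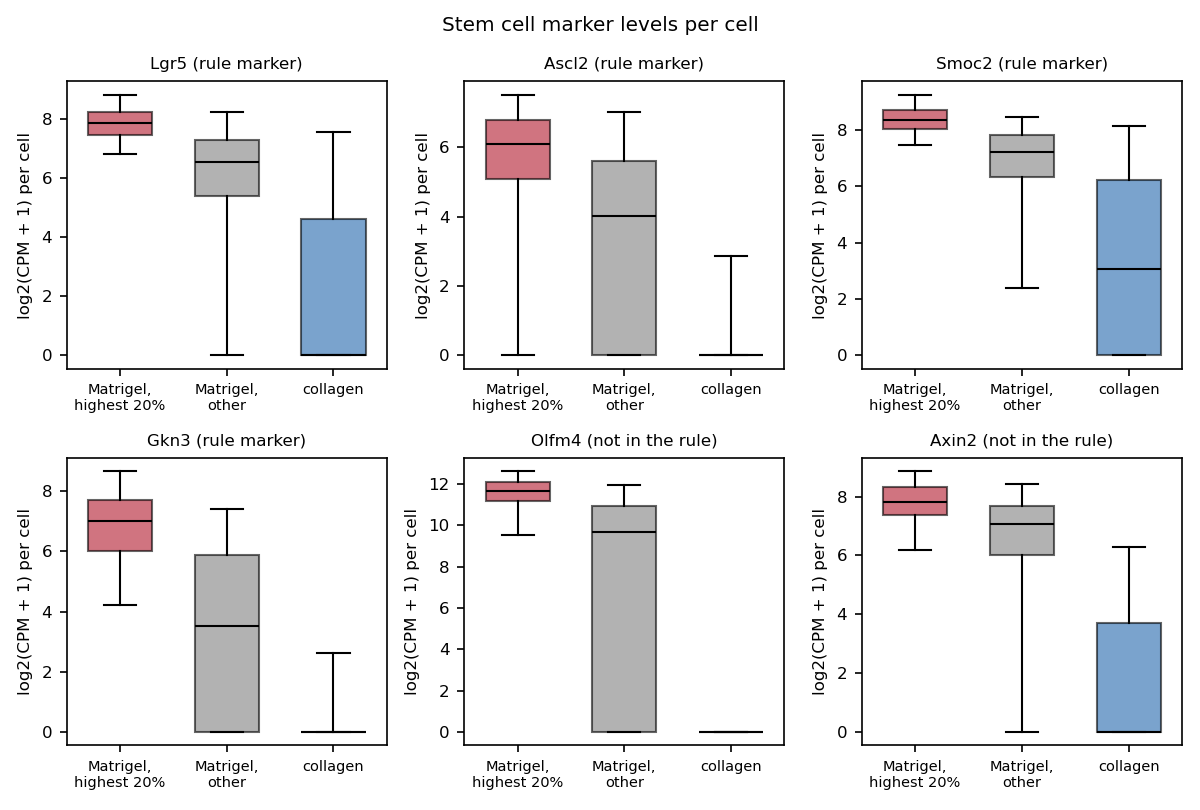
Level per cell, as log2(CPM + 1), of the 4 markers of the rule and of Olfm4 and Axin2 in 320 members (red), 1279 other Matrigel cells (grey) and 336 collagen cells (blue). Boxes span the quartiles, lines mark the median and whiskers reach percentiles 5 and 95. All 6 medians are higher in members, by choice for the first 4 genes, and the ranges overlap between the Matrigel groups.

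To see how far a marker followed the others, the highest 20% were chosen again with each marker left out in turn. Every left-out marker was higher in the cells the other 3 had chosen than in the rest. Gkn3 stood at 110 CPM (exact 95% Poisson interval 107 to 113) against 49.6 CPM (48.7 to 50.5), Smoc2 at 292 CPM (288 to 297) against 175 CPM (173 to 177) and Lgr5 at 194 CPM (190 to 197) against 118 CPM (117 to 120). Ascl2 followed the others least, at 53.3 CPM (51.3 to 55.3) against 41.5 CPM (40.7 to 42.3), or 1.28-fold, where Gkn3 differed 2.22-fold. The reselected groups held between 247 (without Ascl2) and 255 (without Lgr5) of the 320 members. Poisson intervals here cover counting error only, and PCR copies among the counts would make them too narrow.

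**Figure D2:**
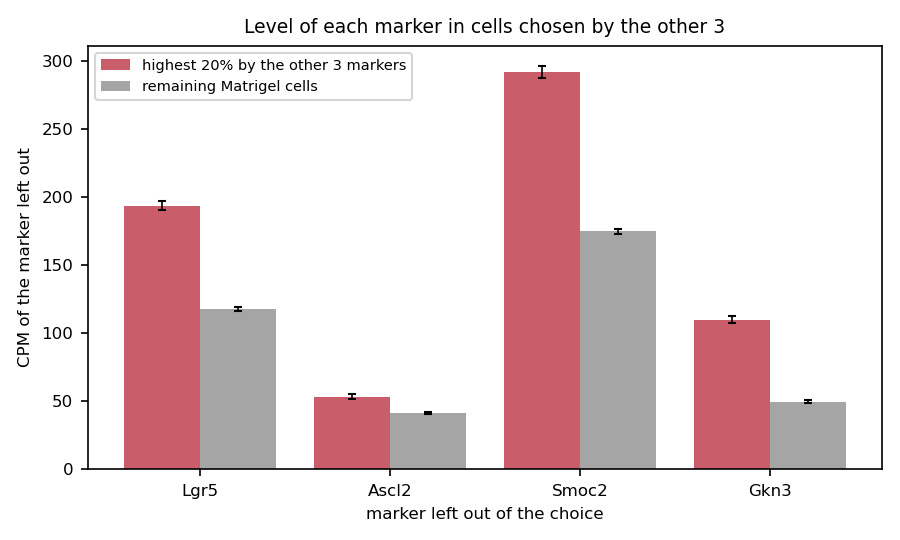
CPM of each marker in the 320 Matrigel cells chosen by the other 3 markers (red) and in the remaining 1279 (grey), with exact 95% Poisson intervals. The red bar is higher for each marker, with the smallest ratio for Ascl2 (53.3 against 41.5 CPM) and the widest for Gkn3 (110 against 49.6 CPM).

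Over all 1599 kept Matrigel cells the rank correlation (Spearman) between markers was 0.50 for Smoc2 and Gkn3, 0.40 for Lgr5 and Smoc2, and 0.22 for Ascl2 and Smoc2. Olfm4, which the rule did not use, correlated at 0.69 with Gkn3, 0.59 with Smoc2, 0.51 with Lgr5 and 0.37 with Ascl2. Within the 320 members these values were lower, 0.46 for Gkn3 and Olfm4 and -0.43 for Ascl2 and Smoc2. Choosing cells by an average rank lowers the correlations among its markers within the chosen cells by construction, and all cells share 1 library.

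Collagen cells were placed on the same scale by giving each marker level its rank among the Matrigel cells. A single collagen cell of 336 reached the members' limit (0.298%, exact 95% binomial interval 0.00753% to 1.65%), and 9 lay above the Matrigel median. Ascl2 stood at 2.44 CPM and Gkn3 at 1.95 CPM in collagen cells against 79.4 and 148 CPM in members. Lgr5 (33.0 against 240 CPM) and Smoc2 (64.5 against 344 CPM) were lower too. Matrix, medium and release differed together between the cultures, so their parts cannot be told apart.

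The first question on genes outside the rule was which other transcripts were higher in members. Of 10267 genes reaching 5 CPM in either group, 216 were at least 1.5-fold higher in members (2.1%) and 281 at least 1.5-fold lower (2.74%). These 2 shares are the background for the counts of gene lists below. A gene reaching 5 CPM in only 1 group cannot be counted as higher in the other. Without the 4 markers 212 were higher. At 2-fold, 35 were higher (0.341%) and 130 lower (1.27%), and the median log2 ratio of all genes measured was 0.02. Of the 12 abundant genes with the lowest ratios, 6 belonged to the goblet or enteroendocrine lists and 2 to the enterocyte list.

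**Figure D3:**
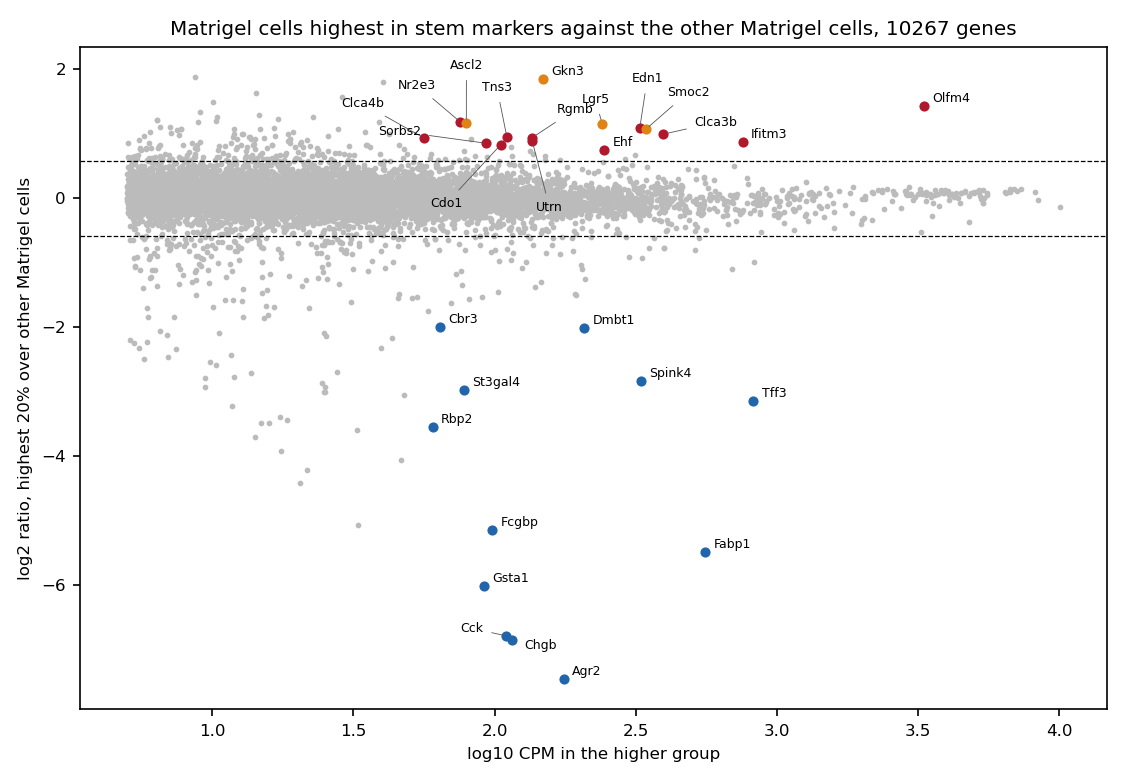
Log2 ratio of members over other Matrigel cells (1 CPM added) against log10 CPM in the higher group, for 10267 genes. Rule markers are orange, the 12 genes with the largest ratios among abundant genes are red when higher in members and blue when lower, and dashed lines mark 1.5-fold. Olfm4 is the most abundant of the higher genes, at 3303 CPM, and Agr2, Chgb and Cck lie lowest because they are at 0 in members.

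Olfm4, a secreted glycoprotein that marks crypt base stem cells, had the largest ratio of the abundant genes outside the rule, with a log2 ratio of 1.43. Members ran from 0 through a median of 3256 to 9810 CPM, and the others from 0 through 814 to 8133 CPM. It had a count in 316 of 320 members and in 951 of 1279 other cells, and 303 members lay above the others' median. Summed, it stood at 3303 CPM (3288 to 3318) against 1226 CPM (1222 to 1231). Olfm4 is among 49 genes whose low values are missing from the table (its smallest value is 12 counts), and the log2 ratio was 1.41 with every 0 set to that value. Thinned to 77972 counts per cell, it was found in 99.4% of members (exact 95% binomial interval 97.7% to 99.9%), 77.7% of the others (75.2% to 80.1%) and 1.14% of collagen cells (0.235% to 3.28%), which shared the pooled library. Without thinning the shares were 98.8%, 74.4% and 0.893%, at median depths of 168888, 181220 and 124619 counts.

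Among 23 measured crypt stem cell genes other than the rule markers, 16 were at least 1.5-fold higher in members, 0 were lower and the median log2 ratio was 0.63. All 23 lay above 0, the lowest being Znrf3 (0.15), Aqp4 (0.37) and Prom1 (0.40). The list was drawn up with earlier results of these data known. Clca3b, of the family of calcium-activated chloride channel regulators, ran from 13.8 through 365 to 1605 CPM in members and from 0 through 156 to 1416 CPM in the others (log2 ratio 0.99). Rgmb, a co-receptor for bone morphogenetic proteins (BMPs), stood at 136 against 70.3 CPM (0.94) and Ifitm3, an interferon-induced membrane protein, at 756 against 412 CPM (0.88). Prelp, a leucine-rich repeat proteoglycan, was scarcer, at 22.7 against 8.94 CPM (1.26), and had a count in 194 members. Tnfrsf19, a receptor of the tumour necrosis factor family and a Wnt target, stood at 6.36 against 2.18 CPM (1.21). It reached 5 CPM only in members, so it could not be counted as lower.

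Genes of slow-cycling or position 4 stem cells differed less. Of 4 measured, 0 were 1.5-fold higher or lower and the median log2 ratio was 0.33. Hopx, a homeodomain-only protein, was abundant in both groups, at 330 CPM in members and 293 CPM in the others (0.17). Bmi1, a Polycomb subunit, stood at 12.3 against 12.9 CPM (-0.06), Lrig1, a negative regulator of ErbB receptors, at 69.9 against 49.4 CPM (0.49) and Mex3a, an RNA-binding protein, at 13.2 against 8.99 CPM (0.51).

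Several of the other genes with the largest ratios are not classical stem cell markers. Nr2e3, a nuclear receptor best known from photoreceptors, ran from 0 through 58.0 to 346 CPM in members and from 0 through 10.7 to 355 CPM in the others (log2 ratio 1.18). Edn1, which encodes the peptide endothelin-1, ran from 0 through 157 to 2599 CPM against 0, 41.6 and 2749 CPM (1.09). Its spread among members was wide, with quartiles of 49.2 and 528 CPM. The remaining genes of the 12 with the largest ratios were Tns3, a focal adhesion tensin (0.95), Clca4b (0.93), Utrn, a dystrophin relative (0.90), Sorbs2, an adaptor protein (0.85), Cdo1, a cysteine dioxygenase (0.83) and Ehf, an ETS transcription factor (0.74). In collagen cells Nr2e3 stood at 0.62 CPM, Edn1 at 31.9 CPM and Tns3 at 59.3 CPM, the last close to the 56.6 CPM of the other Matrigel cells.

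The 12 genes with the largest ratios were also followed along the average rank. They were picked for their ratio of members over the rest, so the higher level of members was fixed by that choice. In 5 equal bins of the average rank, quintile 1 being the members, all 12 were lower at each step. Olfm4 went from 3303 through 2333, 1552 and 738 to 165 CPM. Edn1 went from 327 through 216, 171 and 134 to 84.7 CPM, and Nr2e3 from 75.7 to 7.82 CPM. The order among quintiles 2 to 5 was not used in the choice, but their pooled level was. A low level in any of them favoured a gene being picked. Quintile 2 had 1.83 (Utrn) to 14.2 (Olfm4) times the level of quintile 5. Members had 1.17 (Ifitm3) to 1.51 (Edn1) times the level of quintile 2.

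**Figure D4:**
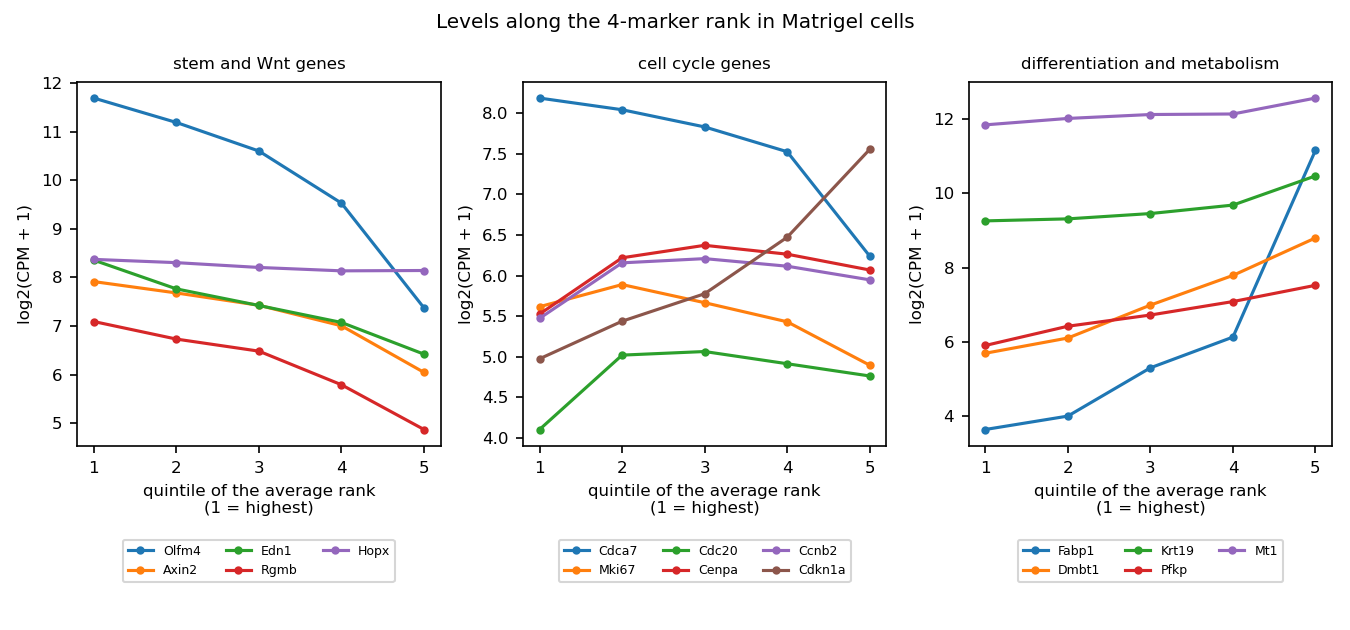
Level, as log2(CPM + 1), in 5 quintiles of the average marker rank (quintile 1 is the 320 members) for stem and Wnt genes, cell cycle genes and genes of differentiation and metabolism. Olfm4, Axin2, Edn1 and Rgmb are lower at each step, Cdc20, Cenpa and Ccnb2 are lowest in the members, and Fabp1 is concentrated in quintile 5.

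Of 9 measured Wnt target and feedback genes, 4 were at least 1.5-fold higher in members and 0 lower, with a median log2 ratio of 0.50. The list shares 5 of these 9 genes, Axin2, Cd44, Rnf43, Sox9 and Znrf3, with the crypt stem cell list. The count of 4 became 1 with members chosen without Lgr5, and 0 against other cells with Olfm4 or against the cells next in rank. Axin2, a negative feedback gene of the pathway, ran from 0 through 225 to 801 CPM in members and from 0 through 134 to 689 CPM in the others (0.73), and 265 members lay above the others' median. Sp5, a transcription factor, stood at 22.6 against 13.9 CPM (0.66), Rnf43, a ubiquitin ligase that removes Wnt receptors, at 78.3 against 50.8 CPM (0.62) and Cd44, a hyaluronan receptor, at 80.0 against 52.8 CPM (0.59). Myc (0.05), Ccnd1 (0.18) and Znrf3 (0.15) were near the median of all genes. Of 20 Wnt receptors and effectors 1 was higher, the receptor Fzd2 (13.1 against 8.16 CPM, 0.63), and 0 were lower (median 0.12). Over all measured genes 2.1% were higher and 2.74% lower. Lgr4, the other main R-spondin receptor of the epithelium, stood at 142 against 114 CPM (0.31), and Ctnnb1, the gene of beta-catenin, at 264 against 241 CPM (0.13).

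Promoter sequences are shown for 2 of the rule markers and for the leading gene outside the rule, because factors of the TCF/LEF family carry the canonical Wnt signal to DNA. The core motif was searched as CTTTGA or CTTTGT on either strand in 250 bases before to 50 bases after each gene start (RefSeq, GRCm38.p6), with genes matched by symbol. Ascl2 lies at chr7:142969215-142969514 and Gkn3 at chr6:87388886-87389185, both on the minus strand, and Olfm4 at chr14:80000052-80000351 on the plus strand. Each is written 5′ to 3′ along its gene, with matches in capitals.
Ascl2: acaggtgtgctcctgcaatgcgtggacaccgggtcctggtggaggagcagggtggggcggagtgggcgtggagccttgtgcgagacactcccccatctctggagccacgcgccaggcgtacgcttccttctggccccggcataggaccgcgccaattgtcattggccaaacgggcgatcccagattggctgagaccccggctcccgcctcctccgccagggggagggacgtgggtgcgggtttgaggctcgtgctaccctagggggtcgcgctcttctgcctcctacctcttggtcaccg
Gkn3: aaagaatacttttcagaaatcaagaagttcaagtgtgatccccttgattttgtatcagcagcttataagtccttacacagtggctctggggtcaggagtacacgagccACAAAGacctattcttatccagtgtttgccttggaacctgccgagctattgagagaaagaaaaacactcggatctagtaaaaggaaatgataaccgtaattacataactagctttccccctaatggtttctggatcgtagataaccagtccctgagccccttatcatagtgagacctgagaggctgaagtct
Olfm4: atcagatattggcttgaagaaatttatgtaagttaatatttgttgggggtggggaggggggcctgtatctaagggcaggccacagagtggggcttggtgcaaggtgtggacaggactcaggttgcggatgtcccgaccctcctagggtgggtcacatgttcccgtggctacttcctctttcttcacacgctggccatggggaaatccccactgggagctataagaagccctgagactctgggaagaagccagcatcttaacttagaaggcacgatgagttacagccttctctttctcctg
Only the Gkn3 window of these 3 held a match, ACAAAG at base 109 of the window, 142 bases before the gene start. A match was present in 66 of 231 promoters of the 212 genes higher in members without the rule markers (28.6%). It was present in 84 of 286 of the lower genes (29.4%) and in 2333 of 10028 of all measured genes, rule markers included (23.3%). Over all 32851 promoters of the table the share was 31.2%. The shares of the higher and the lower genes thus differed by less than either differed from that of all measured genes.

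The remaining signalling lists differed little as groups, beside shares of 2.1% higher and 2.74% lower over all measured genes. Of 13 Notch pathway genes 2 were higher and 1 lower (median log2 ratio 0.06). Hes1, the Notch effector that represses secretory fate, stood at 59.2 against 38.0 CPM (0.63). Lfng, a glycosyltransferase acting on Notch, stood at 7.23 against 4.39 CPM (0.61) and the ligand gene Jag1 at 4.95 against 9.62 CPM (-0.84). Lfng reached 5 CPM only in members and Jag1 only in the others, so neither could be counted the other way. Dll1, a ligand of secretory precursors, stood at 9.86 against 10.6 CPM (-0.09). Of 10 BMP and TGF-beta genes 0 were higher and 1 lower (median 0.09). That gene was Id3, a target of BMP signalling, at 21.4 against 43.5 CPM (-0.99), beside Id1 at 30.2 against 38.8 CPM (-0.35). Of 16 genes of EGF receptor signalling 0 were higher and 1 lower, the ligand gene Areg, at 16.7 against 50.9 CPM (median of the list 0.11). Areg lacks low values, and with zeros at the smallest value kept its log2 ratio went from -1.55 to -0.56 and the list had 0 lower. Of 11 Eph receptors and ephrins 0 lay past 1.5-fold (median 0.10), with Ephb2 at 88.0 against 81.5 CPM and Ephb3 at 15.9 against 12.7 CPM.

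Most genes of the cell cycle lists lay within 1.5-fold, and the shares over all measured genes were 2.1% higher and 2.74% lower. Of 43 S phase genes 2 were higher and 0 lower, but 40 lay above 0. Their median log2 ratio was 0.24, beside 0.02 for all measured genes. Of 49 G2/M genes 1 was higher and 4 were lower (median 0.10), with 28 above 0 and 21 below. The summed S phase list ran from 417 through 2909 to 7546 CPM per cell in members and from 88.9 through 2327 to 7062 CPM in the others. The summed G2/M list ran from 591 through 2095 to 10952 CPM against 261, 2699 and 11621 CPM. When all Matrigel cells were divided into tertiles of each sum, members made up 75, 111 and 134 cells of the low, middle and high S phase tertiles, and 132, 107 and 81 of the G2/M tertiles. Each tertile held 533 cells, so members were more often high in S phase genes and low in G2/M genes. Olfm4, which the rule did not use, was higher in members than in the others within every tertile of either list, for example at 2779 against 1244 CPM in the high G2/M tertile.

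Of the 4 lower G2/M genes, 3 encode proteins of mitosis or entry into it. Cdc20, an activator of the anaphase-promoting complex, had a count in 132 of 320 members (41.3%) and 632 of 1279 others (49.4%), at 16.2 against 29.9 CPM (log2 ratio -0.85). Cenpa, the histone variant of centromeres, stood at 45.0 against 74.6 CPM (-0.71), Ccnb2, a B-type cyclin, at 43.4 against 68.3 CPM (-0.64) and Tubb4b, a beta-tubulin, at 239 against 366 CPM (-0.61). Nusap1, a spindle protein, went the other way, at 14.0 against 7.39 CPM (0.84), and Top2a (66.9 against 48.4 CPM) and Cdk1 (57.7 against 43.5 CPM) lay within 1.5-fold. Mki67 stood at 48.0 CPM against 45.2 CPM, while its thinned share of cells was 53.5% (47.8% to 59.1%) against 61.2% (58.4% to 64.0%), so level and share give no common order. Along the rank, Cdc20 went from 16.2 CPM in members to 31.4, 32.4, 29.1 and 26.1 CPM, so the step lay between members and the next quintile. The lower values depended on how members were chosen. Without Lgr5 in the rule the log2 ratios were -0.42 for Cdc20, -0.25 for Cenpa and -0.18 for Ccnb2. With ranks within 10 bins of counts per cell they were -0.68, -0.54 and -0.50, and with the highest 30% as members -0.65, -0.57 and -0.52. With mean z scores in place of ranks they were -0.74, -0.53 and -0.44. Of the G2/M list 6 were higher and 1 lower with the 10 bins, and 0 higher and 7 lower with the highest 10% as members.

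The genes of 3 inhibitors of cyclin-dependent kinases were lower in members. Of 15 G1 cyclins, kinases and inhibitors 3 were lower and 1 higher (median -0.09). Cdkn1a, the gene of the inhibitor p21, ran from 0 through 5.58 to 679 CPM in members and from 0 through 43.3 to 6277 CPM in the others (log2 ratio -1.54). Its thinned share was 47.1% (41.5% to 52.8%) in members, 74.3% (71.7% to 76.8%) in the others and 90.2% (85.9% to 93.5%) in collagen cells. Cdkn2b stood at 2.85 against 12.8 CPM (-1.84) and Cdkn1c at 4.01 against 7.18 CPM (-0.71). Both reached 5 CPM only in the other cells, so neither could be counted as higher in members. The higher gene was Cdk6, at 150 against 99.2 CPM (0.60). Cdkn1a went from 30.4 CPM in members through 42.3, 53.8 and 87.8 to 187 CPM in quintile 5.

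**Figure D5:**
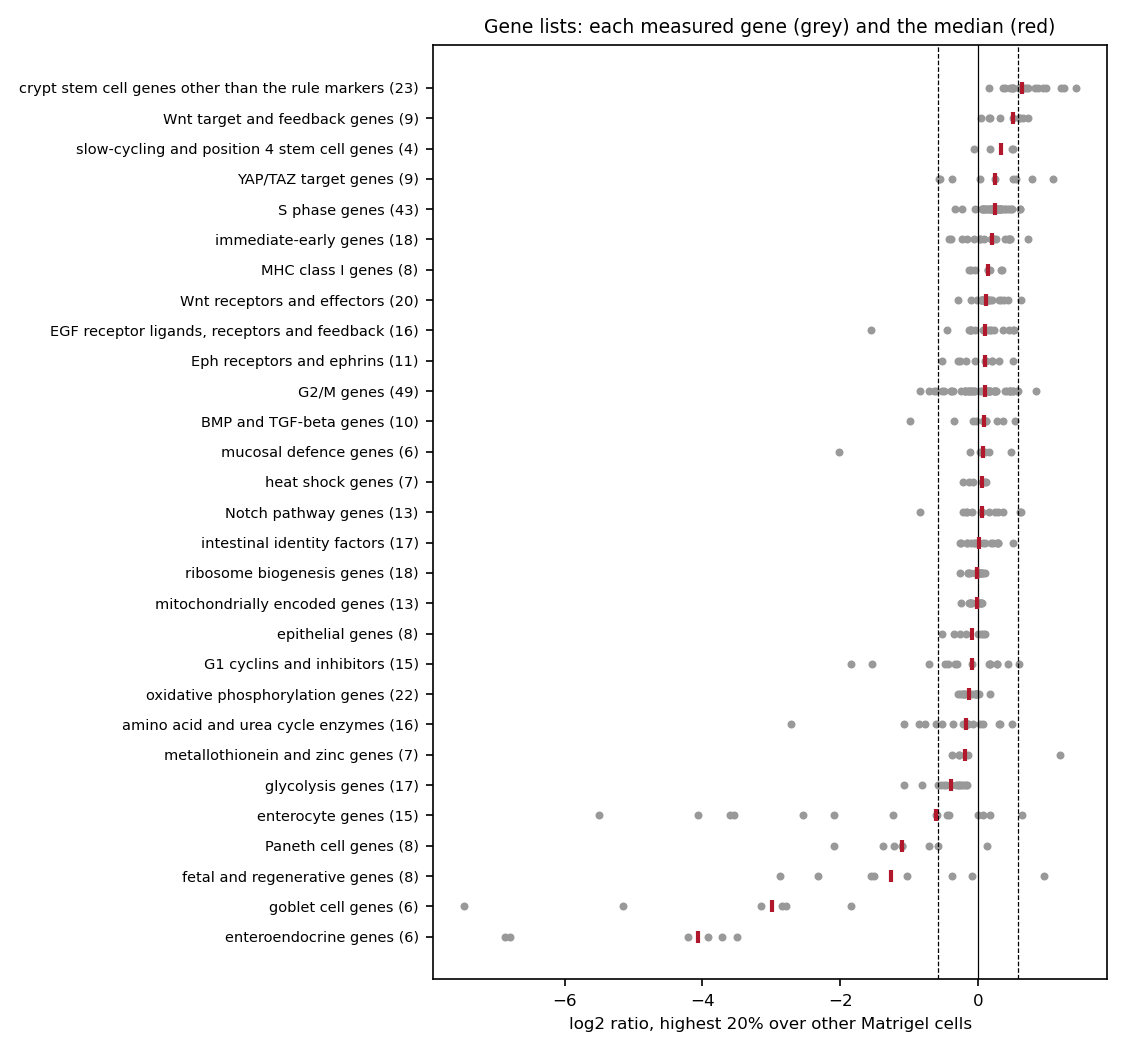
Log2 ratio of members over other Matrigel cells for each measured gene of a list (grey) and the list's median (red), with the number of genes in brackets and 1.5-fold as dashed lines. Crypt stem cell genes (median 0.63) and Wnt targets (0.50) lie highest, and goblet cell (-3.00) and enteroendocrine genes (-4.07) lowest. The enteroendocrine genes reached 5 CPM only in the other cells.

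Enterocyte genes were lower in members, though the difference came from a minority of the other cells. Of 15 measured 9 were lower and 1 higher (median log2 ratio -0.60). Fabp1, a fatty acid binding protein, stood at 11.3 CPM (10.5 to 12.3) against 557 CPM (554 to 560), but the medians per cell were 3.71 and 7.94 CPM, and 5% of the other cells held 91.5% of their Fabp1 counts. Alpi, the intestinal alkaline phosphatase, stood at 1.86 against 46.8 CPM (-4.06), and after thinning was found in 7.01% of members (4.44% to 10.4%) and 24.9% of the others (22.5% to 27.5%). Rbp2, a retinol binding protein, stood at 4.26 against 60.4 CPM (-3.55) and Krt20, a keratin of mature cells, at 0.85 against 9.80 CPM (-2.55). The exception was Anpep, an aminopeptidase, at 9.26 against 5.56 CPM (0.65). Alpi, Rbp2, Krt20 and Sis (1.77 CPM in members) were among the lower genes that reached 5 CPM only in the other cells. Such genes could not be counted as higher in members. Fabp1 was near the members' level in quintile 2 (14.9 CPM) and reached 2298 CPM in quintile 5. Against quintile 2 alone 10 genes of the list were measured, and their median was 0.036.

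Summed levels of secretory lineage genes were lower in members than in the others. All 6 measured goblet genes and all 6 measured enteroendocrine genes were lower, as were 6 of 8 Paneth genes, and of the tuft genes 0 reached 5 CPM. The 13 enteroendocrine genes found summed to 1.78 CPM in members, so all 6 measured reached 5 CPM only in the other cells. So did the goblet genes Muc2 (0.93 CPM in members), Fcgbp (1.77 CPM) and Agr2 (0 CPM). Such genes could not be counted as higher in members. The summed goblet markers stood at 95.7 CPM in members and 1123 CPM in the others, the enteroendocrine markers at 0.52 against 262 CPM, the Paneth markers at 628 against 1261 CPM and the tuft markers at 7.08 against 11.1 CPM. Cell by cell the Paneth markers went the other way, with a median of 13.2 CPM in members against 7.36 CPM, an upper quartile of 72.4 against 34.9 CPM and a count in 72.5% against 66.6% of cells. Chgb, a granin of endocrine granules, Cck, the gene of cholecystokinin, and Agr2, a goblet cell disulfide isomerase, were at 0 in all 320 members and at 115, 110 and 176 CPM in the others, where 13, 6 and 40 cells had a count. These 3 are among the genes without low values, so 0 includes unseen low counts. With every 0 at the smallest value kept, the log2 ratios were -0.19, -0.16 and -0.18. The medians of the lists were then -1.25 for goblet, -3.59 for enteroendocrine and -0.30 for Paneth genes.

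Other genes of this kind also rested on few cells. Tff3, a trefoil peptide of goblet cells, stood at 92.0 against 825 CPM (log2 ratio -3.15) with medians per cell of 10.1 and 13.2 CPM. Spink4 had a count in 1 member, which reached 13419 CPM, and Lyz1, the Paneth lysozyme, in 19 members, 2 of which held 53.6% of its counts. A single member reached 102214 CPM of the summed Paneth markers, and 2 members (0.625%) and 62 other cells (4.85%) had at least 1% of their counts in Paneth, goblet and enteroendocrine genes. Without those cells Tff3 had a log2 ratio of -0.77 and Lyz1 of 1.38, and of 5 Paneth genes measured 4 were higher in members and 0 lower. Whether these 2 members are mixed captures was not tested, and no doublet caller was run beyond the names in the table. Stromal, immune and endothelial markers were near 0 in both groups, with summed levels of 0.84, 0.68 and 1.27 CPM in members and 0.74, 0.97 and 1.32 CPM in the others. A wider list of 11 such genes summed to 2.99 against 8.76 CPM, and 1 of the other cells reached 3700 CPM. The 1 gene of it that was measured was lower in members (log2 ratio -2.49).

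Of 8 measured markers of fetal and regenerating epithelium 5 were lower and 1 higher (median log2 ratio -1.26). Among them, Lgals3 (2.46 CPM in members) and Ly6a (0.30 CPM in members) reached 5 CPM only in the other cells. Such genes could not be counted as higher in members. The list holds 6 genes without low values, and with zeros at the smallest value kept 2 were lower and 0 higher (median -0.45). S100a6, a calcium-binding protein, stood at 68.0 against 194 CPM (-1.50) and Anxa3, an annexin, at 12.2 against 25.8 CPM (-1.03). Ly6a, the gene of Sca-1, had a count in 2 members and 51 of the others, against a thinned share of 45.8% in collagen cells. Clu, the gene of clusterin, stood at 25.7 CPM against 12.7 CPM (0.96), with a thinned share of 19.4% (15.2% to 24.2%) in members, 11.8% (9.98% to 13.8%) in the others and 71.2% (65.3% to 76.6%) in collagen cells. The log2 ratio of Clu was 0.19 with zeros at the smallest value kept and 0.44 with members chosen without Lgr5. Of 9 YAP/TAZ targets 2 were higher, Edn1 and the phosphatase gene Ptpn14 (5.57 against 2.83 CPM, 0.78), and 0 were lower (median 0.24). Ptpn14 reached 5 CPM only in members, so it could not be counted as lower. The counts were 2 higher and 2 lower with thinned cells, 1 and 1 without Lgr5 in the rule, and 4 and 0 without Ascl2. Over all measured genes 2.1% were higher and 2.74% lower.

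Glycolysis genes were lower in members by small amounts. All 17 glycolysis genes measured lay below 0 (median log2 ratio -0.39), but 2 passed 1.5-fold. Pfkp, a phosphofructokinase, ran from 0 through 38.6 to 312 CPM in members and from 0 through 107 to 572 CPM in the others (-1.08), and 47 members lay above the others' median. Slc16a3, a lactate exporter, stood at 56.6 against 100 CPM (-0.81), and Ldha, lactate dehydrogenase, at 1150 against 1589 CPM (-0.47). Pfkp was higher at each step from the members to quintile 5, where it stood at 183 CPM. Of 16 enzymes of amino acid metabolism 5 were lower and 0 higher (median -0.18), among them the serine synthesis genes Psph (24.0 against 51.5 CPM, -1.07) and Psat1 (64.0 against 117 CPM, -0.86). Of 22 oxidative phosphorylation genes 0 passed 1.5-fold (median -0.13), and none of the 13 mitochondrially encoded genes did (median -0.02).

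Several lists showed little difference between the groups, where 2.1% of all measured genes were higher and 2.74% lower. Of 17 intestinal identity factors 0 lay past 1.5-fold (median log2 ratio 0.01), with Cdx2 at 157 against 161 CPM and Hnf4a at 300 against 284 CPM. The same count of 0 held for 18 ribosome biogenesis genes (median -0.01), 7 heat shock genes (0.06) and 8 MHC class I genes (0.15), and 0 MHC class II genes reached 5 CPM. Among 8 general epithelial genes 0 lay past 1.5-fold, the lowest being Krt19, at 612 against 881 CPM (-0.52). Of 18 immediate-early genes, which many stimuli induce within minutes, 1 was higher, Atf3, at 133 against 79.7 CPM (0.73), and 0 were lower (median 0.21). Of 7 metallothionein and zinc genes 1 was higher, the zinc transporter gene Slc30a2 (8.90 against 3.34 CPM, 1.19), while Mt1 stood at 3698 against 4788 CPM (-0.37). Slc30a2 reached 5 CPM only in members, so it could not be counted as lower. Of 6 mucosal defence genes 1 was lower, Dmbt1, a secreted scavenger receptor protein (50.4 against 208 CPM, -2.02).

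Because the other Matrigel cells include differentiated cells, members were also set against quintile 2 alone, a comparison added after the data were seen. Of 10171 genes measured, 74 were at least 1.5-fold higher in members (0.728%) and 20 lower (0.197%), and 47 and 19 of these were also past 1.5-fold against all other Matrigel cells. Edn1 was the only gene of the 12 with the largest ratios past 1.5-fold here, at 327 against 216 CPM (log2 ratio 0.59), while Olfm4 stood at 0.50 and Axin2 at 0.23. Genes outside the naming rule, picked after their values were seen, included Sfrp5, a secreted Wnt inhibitor (28.8 against 15.3 CPM, 0.87), and Thbs1, the matricellular thrombospondin-1 (27.9 against 15.5 CPM, 0.80). On the lower side were Cdc20 (-0.92), Cenpa (-0.69), Ccnb2 (-0.68) and Id3 (-0.62), with Atf5 (16.7 against 30.9 CPM, -0.85) and Egln3, a prolyl hydroxylase (15.8 against 27.0 CPM, -0.74), from outside the rule. Of the 23 crypt stem cell genes 0 were past 1.5-fold in this comparison (median 0.21). Quintiles are cut from the same score, so neighbouring ones differ in marker rank by construction.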

How the data were processed

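The authors deposited unscaled expected counts (estimated counts) of 37172 genes per cell. Tools named in the submitters' processing notes, with no role or order, are STARsolo 2.7.10a, cutadapt 4.1 and R 4.2.1, and the build is GRCm39. No source used here gives the annotation, or says whether reads of 1 molecule were collapsed. Of the values above 0, 75.6% were whole within 1e-06, and 49 genes lacked low values (smallest values from 3.33 to 183). The deposited hashtag table holds whole-number counts for 200497 barcodes.

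Condition came from the hashtag in each cell name, per the labels. The 139 columns named doublet and 16 Matrigel cells above 30% mitochondrial counts were left out. CPM is count per cell total times 1000000. Members were the highest 20% of the mean rank of 4 markers. Counts were summed per group (56396586 in members, 228805063 in other Matrigel and 42540314 in collagen cells) and compared as log2((members CPM + 1)/(other CPM + 1)) for genes reaching 5 CPM in either group. Differences past 1.5-fold were counted. Rounded sums got exact 95% Poisson intervals and shares exact 95% Clopper-Pearson intervals (scipy 1.17.1, Python 3.11.15). For shares, cells were thinned to 77972 counts (percentile 10), which left out 6 members, 116 other Matrigel and 72 collagen cells. The code was tested on simulated data. With 1 suspension per culture no p-value was computed. If copies of molecules were counted, the counts overstate the number of molecules behind each value.

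Named genes reached 50 CPM in the higher group with at least 100 counts, without mitochondrial, ribosomal, predicted, clone, pseudogene names and the 4 markers. Named were the 12 largest ratios each way and at most 4 genes of each of 32 lists (10 CPM or more, largest absolute ratio first), with a fixed set of markers. Further genes of a list are printed where they explain its count. In the lists 7 symbols had no entry. The members, lists and rule were chosen with earlier results of these data known. Alternatives changed the cells chosen, the ranking, the pseudocount, the minimum level and the comparison cells.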

Additional observations from a re-analysis of the deposited data

How the results depend on the processing

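No paired analysis was possible because each culture was a single suspension and both were pooled in 1 library, with no replicates to leave out. Of 2720 values of 136 named genes under 20 alternatives, 2515 were labelled the same. For a gene past 1.5-fold this meant staying past it in the same direction. A gene within 1.5-fold only had not to pass it in its direction. Changes of sign within 1.5-fold are thus among the 2515, such as Hk1 (-0.58, and 0.11 against quintile 2). In 145 values a gene past 1.5-fold no longer passed it, and in 24 it reversed. In 36 values a gene within 1.5-fold newly passed it. The cause was not tested unless stated. The 216 higher genes became 141 with members chosen without Lgr5, 103 with 5 CPM added (which shrinks low genes by construction), 74 against quintile 2 and 35 at 2-fold. The 281 lower genes became 92 against other cells with Olfm4, 490 over every gene with a count, 20 against quintile 2 and 130 at 2-fold. The median log2 ratio of crypt stem cell genes was 0.44 against cells with Olfm4 and 0.21 against quintile 2, and that of enterocyte genes -0.012 and 0.036.

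Changes of sign within 1.5-fold are not counted as reversals here. Values past 1.5-fold in the main comparison reversed under 3 alternatives. Against quintile 2 they were 1.35 for the Paneth list, 2.86 for the goblet list and 0.036 for the enterocyte list. For genes they were 0.51 for Gsta1, 0.13 for Fcgbp, 0.19 for Tff3, 5.53 for Spink4, 0.77 for Mmp7 and 1.91 for Lyz1. They were also 1.75 for Ang4, 4.101 for Defa17, 0.15 for Gcg, 0.083 for Chga, 0.27 for Sis, 0.47 for Muc2 and 0.089 for Dclk1. Few cells carried the values of the Paneth and goblet lists. The goblet value rested on Tff3 and on Spink4, which had a count in 1 member and 0 cells of quintile 2. The Paneth value was that of Defa24, with 80.5% of the members' counts in 2 cells. For Defa17 2 members held 96.8% of the members' counts. Against cells with Olfm4 they were 0.85 for the Paneth list, 0.53 for Lyz1, 0.85 for Ang4, 1.48 for Defa17, 0.086 for Gcg, 0.069 for Chga and 0.025 for Dclk1. Without secretory-rich cells they were 0.81 for the Paneth list, 0.10 for Mmp7, 1.38 for Lyz1, 1.52 for Defa17, 0.067 for Gcg and 0.19 for Muc2. Of 23 thinned shares in members 7 moved beyond their interval without thinning. Genes below 5 CPM and the 49 genes without low values are limited by depth or by that floor.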
